A study of Mus musculus with 12 samples.

Results

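Genes for voltage-gated sodium and calcium channel pore subunits and for potassium channels were followed across 12 RNA-seq libraries of mouse cortex. A gene belonged to the set when its symbol matched a Kcn, Scn alpha-subunit or Cacna1 pattern and its mean over the 12 libraries reached 1 CPM, its counts scaled to a common library total. Of 27179 genes in the table, 117 symbols matched and 92 reached that level, and 91 of the 92 passed the low-count filter of the test. The lowest values kept were 1.24 CPM for Kcnj14, 1.335 for Scn9a and 1.39 for Kcnd3os, and the highest left out were 0.822 for Kcng3, 0.810 for Cacna1s and 0.714 for Kcnk5. The 12 libraries formed 3 groups of 4. MUT mice lacked mouse progranulin (Grn-/-) in a humanized line with the allele labelled GRNmEx5, at 287, 272, 309 and 282 days of age and with 3 animals labelled female and 1 male. KO mice were progranulin-null (Grn-/-), at 308, 282, 282 and 282 days and with 2 labelled female and 2 male. WT mice were Grn+/+, with a female-labelled animal at 287 days and 3 male-labelled animals at 375 days. How either null line was made is not given in the sources used here. Progranulin is a secreted protein delivered to lysosomes, and partial loss of its human gene causes frontotemporal dementia. The comparisons describe how channel transcripts differed between WT and loss of mouse progranulin, with or without the humanized allele. Genotype could not be separated from age in the comparisons with WT, because 3 of 4 WT animals were older than every null animal.

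Ion channels of these families set how a neuron fires. Voltage-gated sodium channels carry the upstroke of the action potential, Kv potassium channels and the calcium- or sodium-activated potassium channels end it and space it from the next, and Kv7, inwardly rectifying and K2P leak potassium channels hold the membrane near rest. Voltage-gated calcium channels couple firing to transmitter release, dendritic signalling and gene expression. Pore subunits work with auxiliary subunits that alter their trafficking and gating, and some Kv subunits are electrically silent by themselves and act by joining others.

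Library totals ran from 16381221 to 20782195 counts, and the log2 fold change of Grn was -2.14 in MUT and -2.20 in KO against WT (edgeR adjusted p = 1.76e-07 and 1.31e-07). Several libraries stood apart in ways that touch the channel results. All 13 markers of cortical excitatory neurons were detected, with list levels of -0.17 to 0.12 (mean log2 CPM centred on each gene). For 16 of 17 striatal markers, the list level was -0.73 to -0.38 in MUT, -0.80 to 0.14 in KO and -0.78 in WT replicate 1, but 0.76, 1.63 and 2.51 in WT replicates 2, 3 and 4, the 375-day animals. For 10 of 12 choroid plexus markers the level was 3.16 in MUT replicate 1, 3.5 in KO replicate 3 and 2.37 in WT replicate 4, and -1.57 to -0.47 in the other 9 libraries. The sex-linked transcripts Xist and Ddx3y ran against the labelled sex in every library, with 9390 to 12900 Xist counts in libraries labelled male and 1 to 19 in those labelled female. In bulk tissue, fewer cells of a type and less RNA per cell cannot be told apart.

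Channel transcripts differed widely in level. On the scale of CPM per kilobase of exon, which depends on the exon length annotated in the table, the highest mean over the 12 libraries was 143 for Kcnab2, a beta subunit that binds Kv channels. Kcnip2, a calcium-binding subunit of Kv4 channels, followed at 66.1, Kcnmb4, the neuronal beta subunit of the large-conductance calcium-activated channel, at 63.7, and the inward rectifiers Kcnj9 and Kcnj4 at 61.4 and 61.2. Of Kcnmb4's exon bases, 28.5% lie over an antisense transcript, so its level is uncertain. The sodium channels of excitatory neurons, Scn8a and Scn2a, stood at 44.0 and 38.8 CPM per kilobase, the leak channel Kcnk1 at 43.7, and the silent Kv subunit Kcnf1 and the fast-gating Kcnc4 at 41.5 and 36.9. Kcnh3 led the Kv7 and EAG family at 57.0. Cacna1a, the pore of presynaptic P/Q-type calcium channels, stood at 31.5, and Cacna1g, a T-type pore, at 17.6. Kcnj9 and Kcnj4, next to each other in this ranking, did not differ beyond their spread over libraries. The lowest was Scn9a, best known from sensory neurons, at 0.136 CPM per kilobase.

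**Figure D1:**
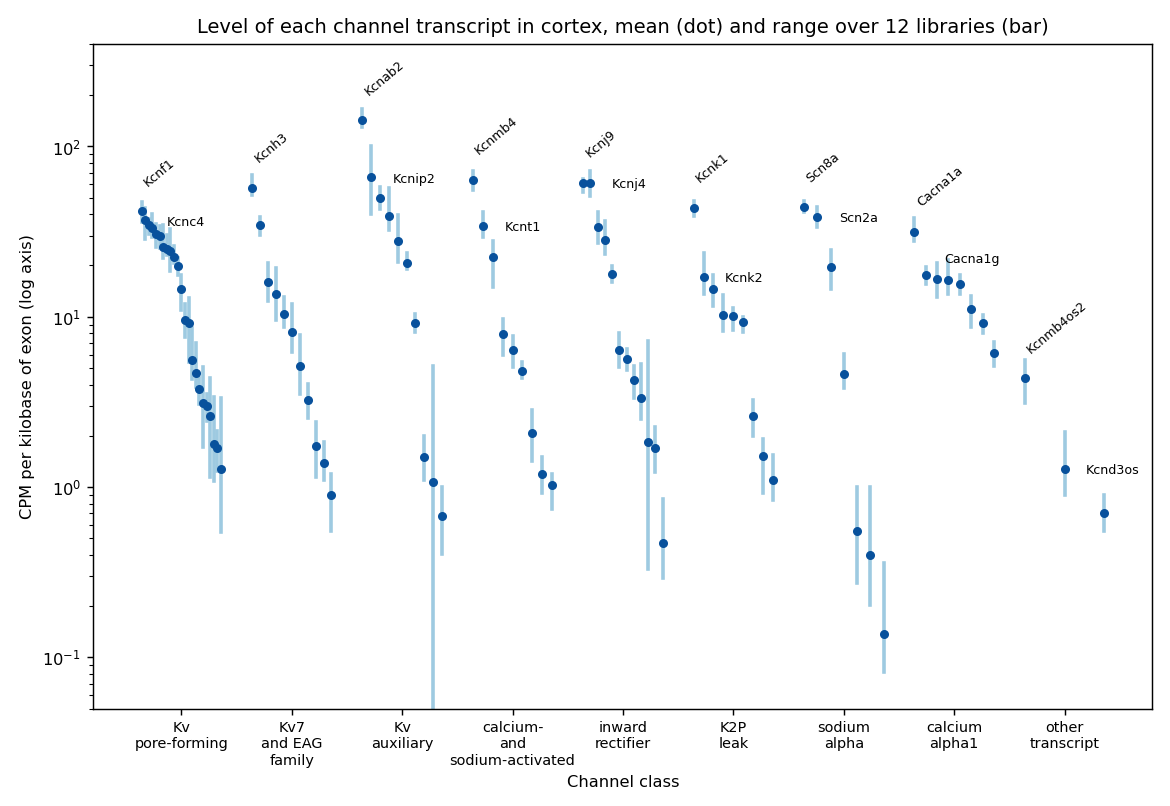
Mean level of each of the 92 channel transcripts in CPM per kilobase of exon (log axis), by class, with the range over 12 libraries as a bar and leading genes named. Kcnab2 stood highest at 143; the bar of Kcne2 runs off the axis because it had 0 counts in KO replicate 4.

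In KO cortex most channel transcripts lay below WT by small amounts. The KO libraries had lower fitted levels for 74 of 91 channel genes, with a median log2 fold change of -0.17, against 0.005 for all 15298 genes tested. At an unadjusted p below 0.05, 32 of the 91 were lower and 1 was higher, against 9.88% lower and 7.99% higher among all genes. In 9 channel genes every KO library lay below every WT library, against 4.82% of all genes, and in 0 every KO library lay above, against 4.29%. Only Kcnj3 passed adjustment over all genes (edgeR quasi-likelihood test, Benjamini-Hochberg), 1 of 91 against 0.471% of all genes. These counts include 3 WT libraries that differ from KO in both age and striatal list level. With animals under 310 days alone, the channel median was -0.05, against 0.01 for all genes. That fit holds a single WT library, which is assumed to vary like the other groups.

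**Figure D2:**
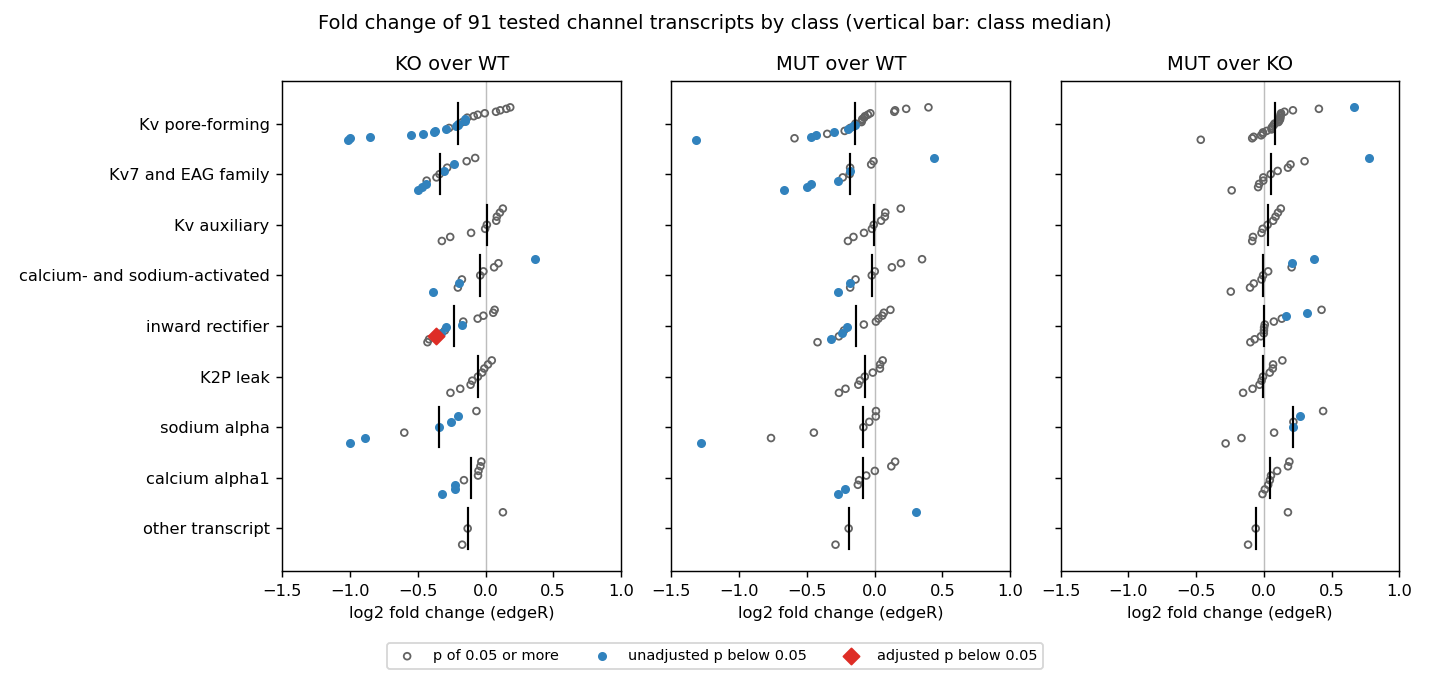
Log2 fold changes (x axis) of 91 tested channel genes by class, KO over WT, MUT over WT and MUT over KO, with a vertical bar at each class median and colour by p. Most points lie left of 0 in both comparisons with WT, and the only gene past the adjusted threshold is Kcnj3 in KO over WT, at -0.36.

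The number of channel genes past the adjusted threshold depended on single libraries and on the method of testing. It was 28 without WT replicate 1, of which 27 were lower and 1 higher, when 10.6% of all genes passed. It was 2 without WT replicate 3, when 0.951% of all genes passed. It was 0 without WT replicate 2 or 4, MUT replicate 2, 3 or 4, or KO replicate 1, 2 or 3. On all 12 libraries it was 14 with DESeq2, all lower, when 4.69% of all genes with an adjusted p passed. Without the sex term in edgeR it was 6, all lower, when 2.05% of all genes passed.

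Kcnj3 was the only channel gene past the adjusted threshold in KO against WT in the main fit. It encodes a G-protein-gated inward rectifier subunit, which lets transmitters acting on inhibitory receptors hyperpolarise a neuron (Entrez 16519, mm10 chromosome 2, 55437156 to 55595525, plus strand). Kcnj3 measured 52.0, 56.2, 57.1 and 59.7 CPM in MUT libraries, 49.2, 45.5, 53.0 and 52.5 in KO libraries and 61.5, 69.5, 64.0 and 60.8 in WT libraries. All 4 KO values lay below all 4 WT values, and the MUT values lay below WT and overlapped KO. The log2 fold change was -0.36 (SE 0.07, edgeR adjusted p = 0.0448) in KO against WT, and -0.20 (SE 0.07, edgeR adjusted p = 0.374) in MUT against WT. The KO value stayed between -0.41 and -0.23 over 23 other settings and passed the threshold in 8 of them. It missed the threshold in the other 15. The smallest values came with sex and age as terms, at -0.23 (edgeR adjusted p = 0.556), and with animals under 310 days alone, at -0.26 (edgeR adjusted p = 0.475). The call was also lost with the striatal level as a term (edgeR adjusted p = 0.208), with a replicate block (0.108), without the 3 choroid-high libraries (0.102), with the exon length trend removed (0.0619) and with library totals alone (0.0506). Leaving out WT replicate 2 or 4, MUT replicate 2, 3 or 4, or KO replicate 1, 2 or 3 gave edgeR adjusted p between 0.0682 and 0.234.

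The other G-protein-gated subunits did not pass. Kcnj6 measured 24.7, 33.7, 35.8 and 30.7 CPM in MUT libraries, 29.9, 24.1, 23.3 and 24.7 in KO and 33.5, 32.8, 31.7 and 29.2 in WT. Its KO mean was the lowest, with a log2 fold change of -0.29 against WT (edgeR adjusted p = 0.181), but all 3 groups overlapped. Kcnj9, the most abundant of the family per length, averaged 203 ± 8.62 CPM in MUT, 204 ± 8.13 in KO and 196 ± 14.6 in WT (SD, n = 4 each), and the interval of its KO log2 fold change was -0.07 to 0.18 (95%).

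The promoters of Kcnj3 and of Kcnt2, the 2 channel genes with the smallest p in KO against WT, are shown because these genes lead that comparison. Each window runs from 250 bases before to 50 bases after a RefSeq start (GRCm38.p6), for Kcnj3 at chr2:55435720-55436019 and for Kcnt2 at chr1:140245468-140245767, both on the plus strand. These starts lie 1186 and 539 bases before the first counted exon base of Kcnj3 and Kcnt2. Capitals mark a match to any of 4 motifs searched on both strands.
Kcnj3: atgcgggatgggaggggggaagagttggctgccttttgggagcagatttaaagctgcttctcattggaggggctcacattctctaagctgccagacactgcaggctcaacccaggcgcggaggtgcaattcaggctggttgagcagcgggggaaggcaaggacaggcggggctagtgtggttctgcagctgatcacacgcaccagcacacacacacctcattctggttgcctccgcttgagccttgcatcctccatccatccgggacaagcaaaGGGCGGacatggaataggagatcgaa
Kcnt2: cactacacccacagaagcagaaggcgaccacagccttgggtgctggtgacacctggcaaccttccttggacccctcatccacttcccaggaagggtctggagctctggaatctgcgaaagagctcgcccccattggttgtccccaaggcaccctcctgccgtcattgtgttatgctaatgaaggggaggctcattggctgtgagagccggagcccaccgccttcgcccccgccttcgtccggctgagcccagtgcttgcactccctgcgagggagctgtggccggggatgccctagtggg
The Kcnj3 window held 1 GC box (GGGCGG), just after the start, and the Kcnt2 window held no match. Among 94 promoters of 65 channel genes in the RefSeq table, GGGCGG on either strand stood in 44.7%, against 35.7% of 32851 promoters of all genes. TATAAA stood in 6.38% against 13.6%, CACGTG in 5.32% against 7.15%, and TAATCC in 4.26% against 7.06%. Channel promoters had a median GC content of 58%, against 52.7% for all. No match in the printed windows overlapped another.

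Of 12 inward rectifier genes, 4 (Kcnj3, Kcnj4, Kcnj6 and Kcnj12) were lower and 0 higher in KO against WT at an unadjusted p below 0.05. Among all genes 9.88% were lower and 7.99% higher. The class median was -0.23. Kcnj4 measured 110.2, 126, 116 and 135 CPM in MUT libraries, 127, 126, 128 and 131 in KO and 129, 153, 145 and 154 in WT. Its KO value was -0.17 (edgeR adjusted p = 0.231) and its MUT value -0.24 against WT (edgeR adjusted p = 0.372). Kcnj12 had 14.5, 16.6, 12.5 and 14 CPM in MUT libraries, 15.1, 14.2, 13.5 and 15.2 in KO and 15.2, 19.3, 19.7 and 19.1 in WT. In both genes WT replicate 1 sat at the level of the null libraries and the 375-day WT animals sat above them. Kcnj10, the glial inward rectifier that clears potassium around synapses, averaged 163 ± 25.7 CPM in MUT, 148 ± 14.7 in KO and 149 ± 17.7 in WT, and the KO interval was -0.28 to 0.25.

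Of 9 calcium- and sodium-activated potassium channel genes, 2 were lower and 1 higher in KO against WT at an unadjusted p below 0.05. The shares among all genes were 9.88% lower and 7.99% higher. In this class 6 genes had values below 0, and the median was -0.04. Those lower were Kcnt1 and Kcnt2, the sodium-activated pair, and neither passed adjustment. Kcnt2 measured 23.2, 25.1, 24.3 and 27.5 CPM in MUT libraries, 24.6, 20.1, 20.6 and 22.1 in KO and 27.0, 30.5, 29.4 and 28.3 in WT (Entrez 240776, mm10 chromosome 1, 140246257 to 140610261, plus strand). Its KO libraries lay below every WT library, with a log2 fold change of -0.39 (SE 0.08, edgeR adjusted p = 0.0529), just outside the threshold. That value passed in 3 of 23 other settings, DESeq2 among them (DESeq2 adjusted p = 0.00253). Kcnt1 measured 196, 193, 179 and 198 CPM in MUT libraries, 195, 204, 202 and 211 in KO and 196, 249, 243 and 249.98 in WT. The 375-day WT animals stood above all 9 other libraries, and WT replicate 1 sat with the null groups. The log2 fold change of Kcnt1 was -0.27 in MUT against WT (edgeR adjusted p = 0.372) and -0.20 in KO against WT (edgeR adjusted p = 0.19). The MUT value was -0.06 with sex and age as terms, -0.14 with the striatal level as a term, -0.01 with animals under 310 days alone, and -0.43 without WT replicate 1 (edgeR adjusted p = 0.000875). It was also smaller without MUT replicate 3, at -0.18.

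Kcnn2 was the 1 channel gene higher in KO at an unadjusted p below 0.05. It encodes a small-conductance calcium-activated channel that contributes to the afterhyperpolarisation, and 13.9% of its exon bases lie over an antisense transcript. It measured 52.4, 54.8, 52.0 and 42.1 CPM in MUT libraries, 52.9, 51.3, 46.7 and 46.0 in KO and 56.6, 31.1, 32.2 and 30.4 in WT. WT replicate 1 was the highest of all 12 libraries and the 375-day WT libraries were the lowest. The log2 fold change was 0.37 in KO (edgeR adjusted p = 0.268), 0.72 without WT replicate 1 (edgeR adjusted p = 0.000734), and reversed to -0.26 with animals under 310 days alone (edgeR adjusted p = 0.579). Kcnu1, known for its pH-gated channel in mouse sperm, stayed between 2.61 and 4.20 CPM in all libraries.

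Of 23 Kv pore-forming genes tested, the most of any class, 13 were lower in KO against WT at an unadjusted p below 0.05, against 9.88% of all genes. None was higher, 0 passed adjustment with edgeR, and the class median was -0.20. Kcna3, a Kv1 subunit also known from lymphocytes and microglia, measured 5.32, 5.13, 5.56 and 5.04 CPM in MUT libraries, 4.15, 2.25, 3.93 and 3.01 in KO and 6.38, 8.62, 4.59 and 7.57 in WT. Every KO value lay below every value of the other groups, although the counts are low. Its log2 fold change was -1.01 in KO against WT (SE 0.22, edgeR adjusted p = 0.0633) and 0.66 in MUT against KO (edgeR adjusted p = 0.726). The KO against WT value passed in 4 of 23 other settings, DESeq2 among them (DESeq2 adjusted p = 0.00228). The microglial list of 9 markers had levels of -0.06 to 0.07 in MUT, -0.01 to 0.07 in KO and -0.17 to 0.03 in WT.

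Among the silent subunits, Kcns2 and Kcng4 separated WT replicate 1 from the 3 older WT libraries. Those libraries also differ from it in labelled sex and striatal list level. Kcns2, which modifies Kv2 channels, measured 19.3, 23.2, 22.8 and 18.9 CPM in MUT libraries, 20.4, 20.4, 20.7 and 19.8 in KO and 19.9, 35.3, 34.8 and 37.7 in WT. Its 3 libraries from 375-day WT animals were far above the rest and WT replicate 1 lay within the null groups. The KO log2 fold change was -0.55 (edgeR adjusted p = 0.0837). Kcng4 measured 8.80, 5.18, 4.13 and 5.35 CPM in MUT libraries, 4.88, 4.72, 4.43 and 4.75 in KO and 4.56, 11, 12.8 and 11.4 in WT, with the same split within WT. Kcng1 differed from these, at 12.6, 20.3, 22.0 and 16.8 CPM in MUT libraries, 21.4, 21.2, 14.4 and 18.6 in KO and 26.2, 25, 29.8 and 27.7 in WT. All 4 WT libraries of Kcng1, replicate 1 included, lay above all 8 null libraries. Its log2 fold changes were -0.47 in MUT and -0.46 in KO against WT (edgeR adjusted p = 0.372 and 0.112).

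Kcnc2, of the fast-gating Kv3 family used by fast-spiking interneurons, and the silent Kcnv1 were singled out after their values were seen. Kcnc2 measured 112, 121, 122 and 126 CPM in MUT libraries, 109, 121, 113 and 121 in KO and 130.1, 137, 133 and 134 in WT. As for Kcng1, all 4 WT libraries were above all 8 null libraries, and the KO log2 fold change was -0.20 (edgeR adjusted p = 0.0826). The list level of 10 inhibitory neuron markers was -0.05 to 0.14 in MUT, -0.17 to 0.01 in KO and -0.02 to 0.03 in WT, and its part in these values was not tested. Kcnv1 measured 103, 91.8, 98.3 and 107 CPM in MUT libraries, 95.5, 112, 83.3 and 101 in KO and 108, 145, 147 and 124 in WT, with KO replicate 2 inside the WT range. Kcnf1 and Kcnc4, the class leaders, averaged 191 ± 18.9 and 118 ± 10.9 CPM in MUT, 203 ± 22.4 and 115 ± 3.42 in KO, and 203 ± 18.3 and 101 ± 15.8 in WT, with KO intervals of -0.21 to 0.20 and -0.03 to 0.33. The Kcnc4 value of 0.15 reversed to -0.09 with sex and age as terms and -0.06 with animals under 310 days alone.

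The abundant Kv1 subunits Kcna1 and Kcna2 were also singled out after their values were seen. Kcna1, a Kv1 subunit of axons that limits excitability, measured 241, 214, 220.2 and 199 CPM in MUT libraries, 198, 207, 208 and 197 in KO and 199.9, 310.2, 276 and 302 in WT. WT replicate 1 lay inside the null range and the 375-day animals above it, and the KO log2 fold change was -0.37 (edgeR adjusted p = 0.103). Kcna2, its usual partner, averaged 367 ± 27.2 CPM in MUT, 332 ± 25.6 in KO and 361 ± 9.55 in WT, with a KO interval of -0.28 to -0.03. That interval excludes 0, but Kcna2 did not pass adjustment (edgeR adjusted p = 0.187).

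**Figure D3:**
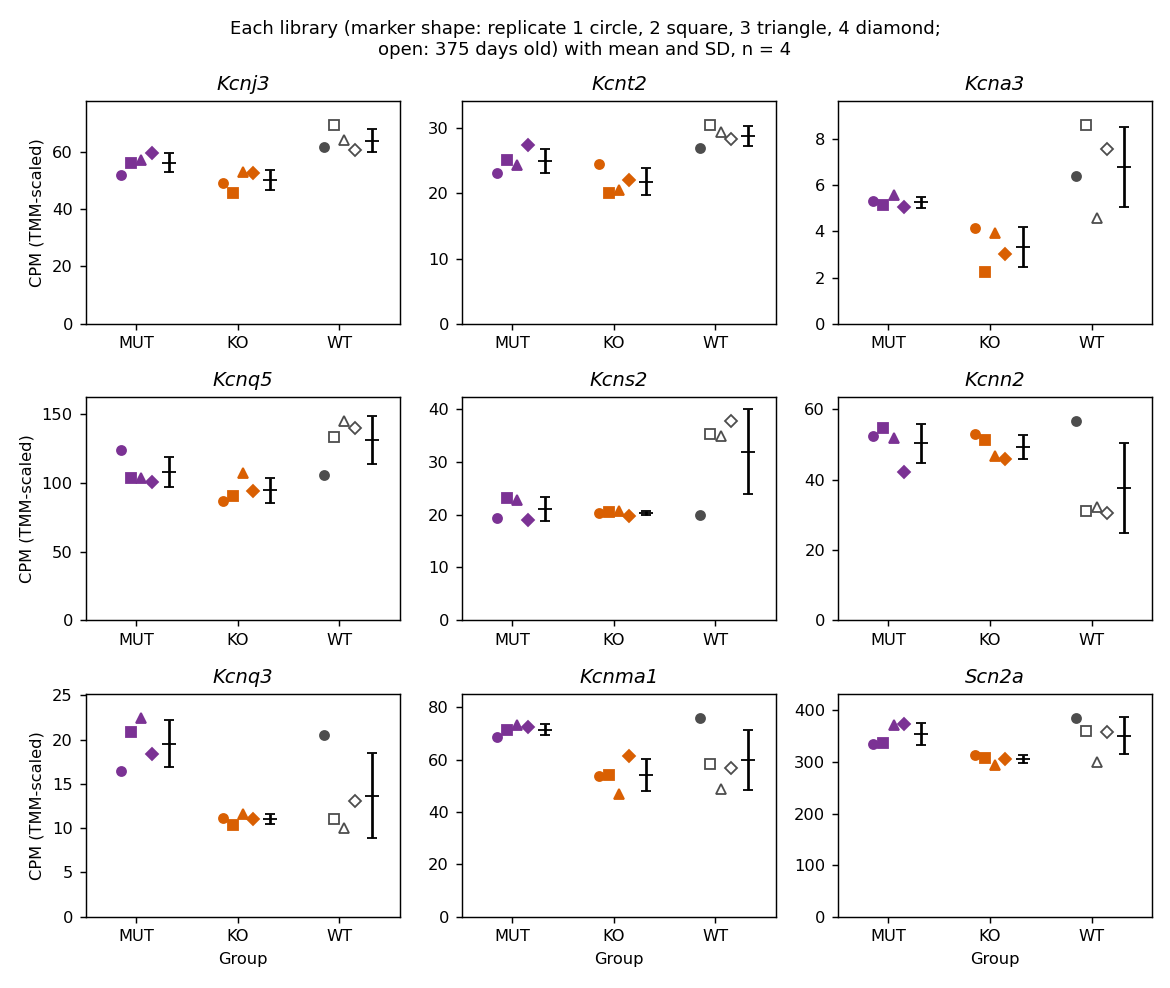
CPM of 9 channel genes in each library (points; open symbols are 375-day animals) with mean and SD of 4 libraries, MUT, KO and WT from left to right. Kcnj3 in KO lies below every WT library, and the filled WT point, replicate 1 at 287 days, sits with the null groups in Kcns2 and is the highest of all in Kcnn2.

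In the Kv7 and EAG family all 11 genes had KO log2 fold changes below 0, with a median of -0.34. At an unadjusted p below 0.05, 5 were lower and 0 higher, against 9.88% lower among all genes, and 0 passed adjustment with edgeR. Kcnq5, a subunit of the M-current that restrains repetitive firing, measured 124, 104, 104 and 101 CPM in MUT libraries, 86.7, 90.6, 107 and 94.2 in KO and 106, 133, 145 and 140.3 in WT. WT replicate 1 overlapped the null groups and the 375-day animals did not. The KO value was -0.47 (SE 0.11, edgeR adjusted p = 0.0737), and it ranged from -0.63 without WT replicate 1 (edgeR adjusted p = 0.00108) to -0.08 with sex and age as terms. That value passed in 3 of 23 other settings, DESeq2 among them (DESeq2 adjusted p = 0.00223). Kcnh1, an EAG channel, measured 83.3, 83.3, 79.4 and 94.7 CPM in MUT libraries, 68.8, 83.8, 91.6 and 97.8 in KO and 86.8, 132, 137 and 126 in WT. Its log2 fold changes were -0.50 in MUT and -0.50 in KO (edgeR adjusted p = 0.372 and 0.115), again with WT replicate 1 among the null libraries.

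All 7 sodium channel alpha subunits had KO fold changes below 0, with a class median of -0.35, and 5 were lower at an unadjusted p below 0.05, again against 9.88% of all genes. None passed adjustment with edgeR. Scn2a, the channel of excitatory axons and dendrites, measured 334, 337, 372 and 374 CPM in MUT libraries, 314, 308, 294 and 306 in KO and 386, 360.0, 300.0 and 359 in WT. KO libraries were lowest apart from an overlap with WT replicate 3, and MUT libraries lay with WT. Its log2 fold change was -0.20 in KO against WT (edgeR adjusted p = 0.17) and 0.01 in MUT against WT (edgeR adjusted p = 0.971). Scn1a, the channel best known from inhibitory neurons, measured 205, 171, 157 and 159.6 CPM in MUT libraries, 121, 131, 167 and 145 in KO and 162, 193, 153 and 188 in WT. Its groups overlapped, with -0.35 in KO against WT (edgeR adjusted p = 0.133). Scn8a, the main channel at the axon initial segment and nodes, averaged 504 ± 28.2 CPM in MUT, 482 ± 14.2 in KO and 508 ± 8.92 in WT. Its KO libraries were all below WT by a small margin, with -0.07 and a 95% interval of -0.16 to 0.03. The low-abundance Scn7a, a sodium-sensing relative, measured 2.51, 3.28, 2.92 and 5.65 CPM in MUT libraries, 3.57, 2.62, 1.99 and 3.18 in KO and 2.91, 6.90, 7.31 and 5.55 in WT, with -0.89 in KO (edgeR adjusted p = 0.17). Scn9a stayed at 0.802 to 1.22 CPM in MUT, 1.05 to 1.40 in KO and 0.889 to 3.52 in WT.

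Calcium channel pores had small fold changes. All 8 were below 0 in KO against WT, with a median of -0.11. At an unadjusted p below 0.05, 3 were lower, namely Cacna1a, Cacna1b and Cacna1i, against 9.88% lower among all genes. Cacna1a measured 224, 241, 241 and 235 CPM in MUT libraries, 221, 242, 233 and 245 in KO and 261, 297, 299.7 and 251 in WT (Entrez 12286, mm10 chromosome 8, 84415364 to 84640249, plus strand). Every WT library lay above all 8 null libraries. Its log2 fold changes were -0.22 in MUT and -0.23 in KO (SE 0.07 and 0.06, edgeR adjusted p = 0.372 and 0.102). The KO libraries of Cacna1b, the N-type presynaptic pore, were also all below WT at 108, 99.5, 101 and 114 CPM in KO libraries, against 127, 128, 117 and 124 in WT libraries. Cacna1i, a T-type pore, measured 151, 162, 149 and 146 CPM in MUT libraries, 133, 148, 148 and 161 in KO and 153, 192, 212 and 185 in WT. WT replicate 1 overlapped the null groups and the older WT animals did not, with -0.32 in KO (edgeR adjusted p = 0.105).

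Of 9 auxiliary genes tested and 9 K2P genes, 0 were lower or higher in KO at an unadjusted p below 0.05 in the edgeR fit. The shares among all genes were 9.88% lower and 7.99% higher. None of the auxiliary and K2P genes passed adjustment. The medians of the auxiliary and K2P classes were 0.01 and -0.06. Kcnab2 averaged 546 ± 59.5 CPM in MUT, 532 ± 23.8 in KO and 540.0 ± 31.0 in WT, with a KO interval of -0.12 to 0.14. Kcnip3 and Kcnip4 had KO fold changes of 0.13 and 0.08, with intervals of -0.07 to 0.33 and -0.06 to 0.23. Kcnip3 reversed to -0.18 with sex and age as terms, -0.14 with animals under 310 days alone and -0.05 with the striatal level as a term. Kcnip2 measured 32.6, 51.9, 59.5 and 49.7 CPM in MUT libraries, 53.5, 50.5, 39.2 and 47.5 in KO and 44.0, 59.3, 81.5 and 75.7 in WT. Its WT values were high in replicates 3 and 4 and its lowest value was in MUT replicate 1. The leak channel Kcnk1 had a KO interval of -0.20 to 0.09, and Kcnk2, an arachidonic acid- and stretch-sensitive leak channel, -0.52 to 0.00. Whether these classes differ from the pore-forming ones was not tested.

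In MUT cortex, too, most channel transcripts lay below WT. This comparison uses the same WT libraries as KO against WT, so the comparisons are not independent. Of 91 channel genes, 64 had values below 0, with a median of -0.10, against 0.004 for all genes tested. At an unadjusted p below 0.05, 20 were lower and 2 higher, against 6.2% lower and 4.97% higher among all genes. In 7, every MUT library lay below every WT library, against 3.71% of all genes, and in 0 every MUT library lay above, against 3.38%. None of the 91 passed adjustment with edgeR, 0 against 0.0196% of all genes, nor with DESeq2. Without WT replicate 1, 20 passed, 15 lower and 5 higher, when 6.89% of all genes passed. With animals under 310 days alone, 1 of 92 was lower at an unadjusted p below 0.05, against 2.28% of all genes.

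The lower MUT values were led by Kcnt1, Cacna1a and Kcng1, described above, and by Kcna5. Kcna5, a delayed rectifier known from heart and smooth muscle, measured 2.37, 2.59, 2.12 and 1.64 CPM in MUT libraries, 3.25, 2.36, 4.71 and 2.29 in KO and 2.75, 6.90, 4.94 and 10.02 in WT. WT spread widely, with replicate 1 just above the highest MUT library. The log2 fold change was -1.32 in MUT (SE 0.41, edgeR adjusted p = 0.372). It was -0.27 with sex and age as terms, -0.28 with animals under 310 days alone, -0.52 with the striatal level as a term, and -1.89 without WT replicate 1 (edgeR adjusted p = 0.0122). The 7 genes whose MUT libraries all lay below WT were Cacna1a, Kcnj3, Kcnv1, Kcnc2, Kcng1, Kcna5 and Kcnh6. Kcna6 averaged 122 ± 2.06 CPM in MUT, 131 ± 4.25 in KO and 141 ± 12.6 in WT, and Kcnh3 194 ± 11, 199.5 ± 14.3 and 219.8 ± 18.4 CPM in MUT, KO and WT.

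Among higher MUT values, Kcnq1ot1, a long noncoding transcript antisense to Kcnq1 that silences imprinted neighbours, measured 63.2, 58.0, 68.9 and 74.7 CPM in MUT libraries, 54.1, 62.4, 51.6 and 63.1 in KO and 62.2, 50.3, 45.9 and 51.1 in WT. MUT and WT overlapped through WT replicate 1. Its log2 fold change of 0.31 (edgeR adjusted p = 0.393) reversed to -0.06 when a trend on exon length was removed. It was 0.08 with animals under 310 days alone and 0.47 without WT replicate 1 (edgeR adjusted p = 0.0353). Its annotated length of 83437 bases is the longest of the set. The MUT value of Kcns3 was 0.23 (95% interval -0.03 to 0.49), and 0.07 to 0.33 over the other settings. The other noncoding transcripts, Kcnmb4os2 and Kcnd3os, stayed within 1.60 to 2.86 and 0.972 to 2.28 CPM over all libraries.

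MUT against KO compares the 2 null groups, which are close in age, and here most channel values lay above 0. The median log2 fold change was 0.05, against -0.004 for all genes, and 34 of 91 lay below 0. With an exon length trend removed, 43 of 91 lay below 0. At an unadjusted p below 0.05, 8 were higher and 0 lower in MUT, against 3.54% higher and 2.2% lower among all genes. Every MUT library lay above every KO library for Kcnma1, Kcna3, Kcnq3 and Scn2a, 4 of 91 against 3.37% of all genes, and below it for Kcna6, 1 of 91 against 1.85%. With edgeR 0 of 91 passed adjustment, against 0.00654% of all genes.

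Kcnq3 had the largest channel fold change between the null groups. It encodes an M-channel subunit, and measured 16.4, 20.9, 22.5 and 18.4 CPM in MUT libraries, 11.2, 10.4, 11.6 and 11 in KO and 20.6, 11, 10.1 and 13.1 in WT. MUT lay wholly above KO, while WT replicate 1 was within MUT and the 375-day WT animals were closer to KO. The log2 fold change was 0.78 in MUT against KO (SE 0.18, edgeR adjusted p = 0.665). It passed adjustment in 3 of 23 other settings, with DESeq2 (adjusted p = 0.0457), with animals under 310 days alone (edgeR adjusted p = 0.0134) and without WT replicate 1 (edgeR adjusted p = 0.0242). Against WT the MUT value of 0.44 was 0.85 without WT replicate 1 (edgeR adjusted p = 0.0055) and reversed to -0.10 with animals under 310 days alone.

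Kcnma1, the pore of the large-conductance calcium-activated channel, measured 68.6, 71.4, 73.3 and 72.7 CPM in MUT libraries, 53.9, 54.2, 46.9 and 61.6 in KO and 76.1, 58.4, 49.0 and 56.7 in WT. MUT libraries were tightly grouped above all KO libraries, and WT spanned both. The log2 fold change was 0.37 in MUT against KO (SE 0.11, edgeR adjusted p = 0.714). Scn2a and Kcnj6, given above, had 0.21 and 0.32 (edgeR adjusted p = 0.733 and 0.726). The lower side held small values, with Kcna6 at -0.08, Kcnmb4 at -0.10, Kcnu1 at -0.24 and Kcna5 at -0.47, none with an unadjusted p below 0.05 in edgeR. Without KO replicate 3 the Kcna5 value was -0.000832.

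The 375-day WT animals stood apart in many channel transcripts. For 21 of 91 genes these 3 libraries all lay above the other 9, against 7.22% of all genes, and for 3 (Kcnn2, Kcnc4 and Kcnq1ot1) they all lay below, against 6.84%. The widest gaps above belonged to Kcns2, Kcnh1, Kcng4, Kcnj12 and Kcnt1, and the widest below to Kcnn2. The mean channel level over 91 genes (centred log2 CPM) was -0.03 to -0.01 in MUT, -0.12 to -0.05 in KO, -0.01 in WT replicate 1, and 0.15, 0.09 and 0.18 in WT replicates 2, 3 and 4. The same 3 libraries had the highest striatal list levels, given above, and the lowest hippocampal levels (10 of 10 markers), -1.08 to -0.76 against -0.44 to 1.0 elsewhere. Age, labelled sex within WT and these marker levels cannot be told apart from one another in these libraries. With the striatal level as a term, 16 of 91 channel genes were lower in KO at an unadjusted p below 0.05, against 6.12% of all genes, and 0 passed adjustment.

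**Figure D4:**
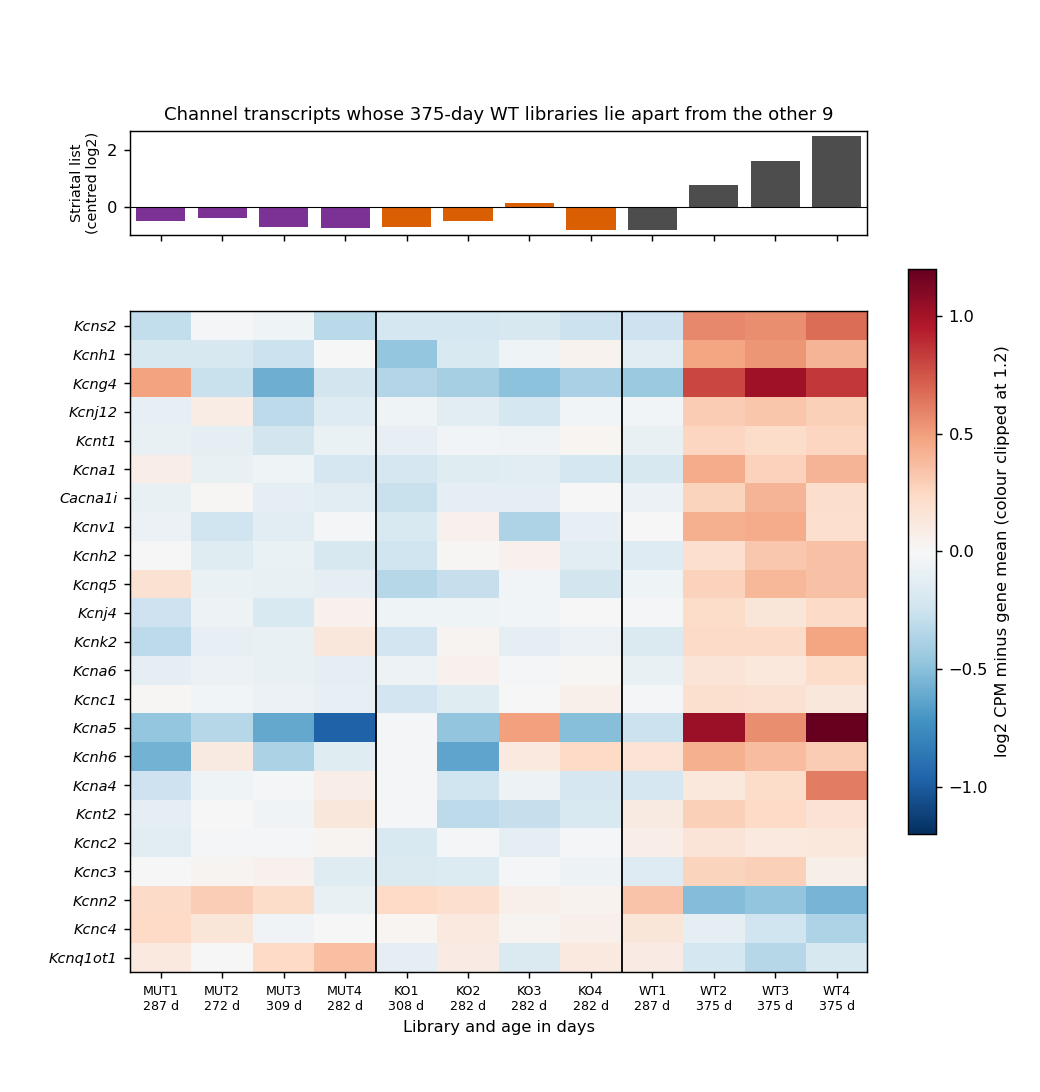
Lower panel: 23 of the 24 channel genes whose 375-day WT libraries all lie above (20 shown, red at right) or all below (3, blue) the other 9 libraries, by library with age (columns), coloured by log2 CPM minus the gene mean; upper panel: striatal list level. The rows were chosen for this split, so the contrast of the 3 right-hand columns with WT replicate 1 and the null columns describes the choice.

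Kcnj13 and Kcne2 were high in the 3 libraries rich in choroid plexus transcripts, 1 in each group. Kcnj13 encodes an inward rectifier of ion-transporting epithelia, choroid plexus included, and Kcne2 an auxiliary subunit found in the same epithelium. Kcnj13 measured 9.72, 1.0, 0.573 and 0.972 CPM in MUT libraries, 0.630, 0.524, 8.98 and 0.447 in KO and 0.605, 0.556, 0.543 and 5.31 in WT. Kcne2 measured 8.17, 0.264, 0.172 and 0.121 CPM in MUT libraries, 0.157, 0.105, 8.70 and 0 in KO and 0.330, 0.167, 0.0988 and 3.46 in WT. MUT replicate 1, KO replicate 3 and WT replicate 4 carried 81.7%, 84.4% and 73.6% of their groups' Kcnj13 counts, and 94.4%, 96.9% and 84.1% of the Kcne2 counts. Those 3 libraries had 1283, 1838 and 597 CPM of Ttr, the main choroid plexus transcript, and the other 9 had at most 42.7. Kcne2 did not pass the low-count filter, and the fold changes of Kcnj13 had intervals as wide as -3.38 to 2.52 in KO against WT. Of the 91 tested genes, 3 (Kcnj13, Kcne1l and Kcnj10) had these 3 libraries above the other 9, against 2.57% of all genes. Kcne1l, an older symbol of Kcne5, ran at 2.90, 2.88 and 2.86 CPM in those libraries, and Kcnj10 at 197, 163 and 169.9 CPM.

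**Figure D5:**
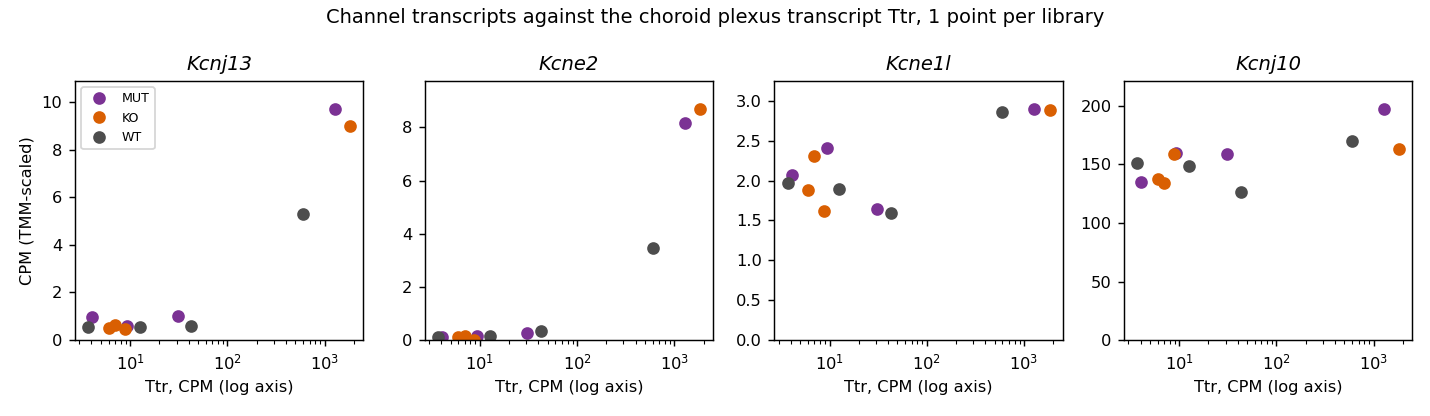
CPM of Kcnj13, Kcne2, Kcne1l and Kcnj10 against CPM of Ttr (log axis), 1 point per library, coloured by group. In Kcnj13 and Kcne2 the 3 libraries with Ttr of 597 CPM or more stand alone, 1 from each group, and in Kcne1l and Kcnj10 they exceed the others by little.

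The promoters of Kcnj13 and Kcne2 are shown because these genes were high in the same 3 libraries. The windows are chr1:87394680-87394979 on the minus strand and chr16:92292139-92292438 on the plus strand (RefSeq, GRCm38.p6), with motif matches in capitals as before.
Kcnj13: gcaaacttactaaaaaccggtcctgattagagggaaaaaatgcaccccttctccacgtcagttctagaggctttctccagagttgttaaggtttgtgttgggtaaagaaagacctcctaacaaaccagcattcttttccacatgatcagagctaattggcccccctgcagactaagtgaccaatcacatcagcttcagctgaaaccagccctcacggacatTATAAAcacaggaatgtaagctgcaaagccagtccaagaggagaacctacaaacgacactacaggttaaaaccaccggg
Kcne2: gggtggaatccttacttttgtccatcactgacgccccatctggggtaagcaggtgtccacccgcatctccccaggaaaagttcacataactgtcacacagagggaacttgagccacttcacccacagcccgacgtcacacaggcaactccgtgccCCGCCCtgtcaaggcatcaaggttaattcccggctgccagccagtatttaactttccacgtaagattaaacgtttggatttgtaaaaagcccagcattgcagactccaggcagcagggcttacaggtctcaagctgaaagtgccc
The Kcnj13 window held a TATA box (TATAAA) ahead of the start and the Kcne2 window a GC box read on the opposite strand (CCGCCC). The Kcnj13 and Kcne2 windows share no motif of the 4 searched.

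On chromosome 11, 5 channel genes lie within 10 Mb of Grn, a distance over which a targeted line can keep flanking sequence of its source strain. They were Kcnh4 at 1.67 Mb, Kcnh6 at 3.57, Cacna1g at 7.96, Kcnj16 at 8.53 and Kcnj2 at 8.63. Kcnh4 measured 26.4, 27.4, 23.6 and 32.1 CPM in MUT libraries, 24.5, 25.9, 24.9 and 36.1 in KO and 28.0, 34.1, 45.2 and 42.1 in WT. Its log2 fold changes were -0.47 in MUT and -0.44 in KO (edgeR adjusted p = 0.402 and 0.206), with overlap between groups. Kcnh6 measured 1.64, 2.70, 1.89 and 2.25 CPM in MUT libraries, 2.47, 1.57, 2.72 and 2.96 in KO and 2.80, 3.39, 3.26 and 3.10 in WT, with all MUT libraries below WT (-0.67, edgeR adjusted p = 0.374). Cacna1g, Kcnj16 and Kcnj2 overlapped between groups, with KO values of -0.16, 0.07 and -0.30.

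Partner proteins of these channels, 40 genes for calcium channel beta, alpha2delta and gamma subunits, sodium channel beta subunits, HCN channels and anchoring proteins, gave 0 genes past adjustment in any comparison with edgeR. In KO against WT 12 of 40 were lower and 0 higher at an unadjusted p below 0.05, against 9.88% and 7.99% of all genes, with a median of -0.10. Cacnb4, a beta subunit that brings calcium channels to the membrane, had the smallest p. It measured 315, 305, 283 and 290.5 CPM in MUT libraries, 259, 279.7, 279 and 262 in KO and 308, 337, 302 and 335 in WT, with all KO libraries below all WT libraries and a log2 fold change of -0.25 (SE 0.05, edgeR adjusted p = 0.0629). In MUT against WT 3 of 40 were lower and 0 higher, near the 6.2% lower among all genes, with Cacng4 at -0.73, Hcn4 at -0.92 and Scn4b at -1.83, and the median was -0.07. Scn4b, an auxiliary subunit abundant in striatal neurons, measured 90.1, 58.2, 48.1 and 55.9 CPM in MUT libraries, 41.2, 58.1, 97.9 and 60.4 in KO and 35.8, 176, 316 and 472 in WT. WT replicate 1 was the lowest of all 12 libraries and the 375-day WT libraries were the highest. In MUT against KO 3 of 40 were higher and 0 lower at an unadjusted p below 0.05, against 3.54% higher among all genes, with a median of 0.03, led by the Kv1-clustering protein Cntnap2 at 0.23.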

How the data were processed

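Libraries from cortical RNA were strand-preserving, per the labels' protocols. The authors deposited raw read counts per gene with Entrez IDs and exon coordinates. The submitters' processing notes name mm10, R 4.1.2 and DESeq2 1.34.0; which aligner, counter and strand setting were used is not given in the sources used here. Reads of the 13 channel genes that share exon bases with an opposite-strand gene are therefore uncertain. Channel genes, partner and marker lists were chosen with earlier results of these data known.

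Counts of all 12 libraries were filtered by filterByExpr (minimum count 10, minimum total 15), TMM-scaled and modelled with edgeR 4.0.16 under R 4.3.3, with a mean for each group, a term for labelled sex and 8 residual degrees of freedom. Quasi-likelihood F tests were adjusted by Benjamini-Hochberg over 15298 genes, with a threshold of 0.05. The fit is the same if both sex labels are exchanged. Fold changes are edgeR's, with the first-named group on top, and CPM uses TMM-scaled totals. A gene at 1 CPM had about 16 to 21 counts per library. Labels do not say that libraries are separate animals, so p values measure the spread between libraries; no pair agreed within sampling noise (chi-square per degree of freedom of 3.55 or more in 66 pairs). The scripts were tested on simulated data. Named genes are those past the threshold, the 4 smallest p each way per comparison, the 2 highest per length of each class, the 8 most variable, those within 10 Mb of Grn, those under the filter, and those with the widest gap (up to 6) in 375-day WT or choroid-high libraries; others were chosen after their values were seen. A few channel genes enter the counts but are not reported here by name. List levels are means of log2 CPM (prior count 2) centred per gene. Alternatives were RLE scaling, library totals alone, no filter, DESeq2 1.42.0, other covariates, library subsets, removal of an exon length trend (spline, 4 degrees of freedom) and each library left out.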

Additional observations from a re-analysis of the deposited data

Results flagged for a closer look

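In 47 named genes and 3 groups of 4 libraries, 141 groups were examined for a library far from the others by Dixon's test at the 95% level, and 15 had one. Chance flags about 1 in 20 groups, but 10 of the 15 lay in genes named because the 375-day WT or choroid-high libraries stand apart in them, so the count cannot be read against that rate.

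Choroid plexus-high libraries gave 6 of them. Kcnj13 was 9.72 CPM in MUT replicate 1, 8.98 in KO replicate 3 and 5.31 in WT replicate 4, where the other libraries of each group had at most 1.0, 0.630 and 0.605 CPM. Kcne2 was 8.17 CPM in MUT replicate 1, 8.70 in KO replicate 3 and 3.46 in WT replicate 4, with at most 0.264, 0.157 and 0.330 CPM in the others of MUT, KO and WT.

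WT replicate 1, the only WT animal under 375 days, gave 4. It was high for Kcnn2 at 56.6 CPM, against 30.4 to 32.2 in the other WT libraries. It was low for Kcnt1 at 196 CPM (others 243 to 249.98), for Kcns2 at 19.9 CPM (others 34.8 to 37.7) and for Kcnj12 at 15.2 CPM (others 19.1 to 19.7).

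The remaining 5 were single values. Kcnq5 was 124 CPM in MUT replicate 1 and Kcnf1 219 CPM in MUT replicate 2. Kcnh4 was 36.1 CPM in KO replicate 4, against 24.5 to 25.9 in the other KO libraries. Kcnk1 was 107 CPM and Cacna1g 135 CPM in WT replicate 4.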

How the results depend on the processing

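At the smallest library total of 16381221 counts, 1 CPM is about 16 counts, so genes near that level, such as Scn9a and Kcnd3os, rest on few counts. Because 3 of 4 WT animals differ in age from all null animals, no setting separates genotype from age with more than 1 WT library.

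In KO against WT, 72 genes and 1 channel gene past the threshold became 22 and 0 with library totals alone, 39 genes without the filter, 647 and 14 with DESeq2, 313 and 6 without the sex term, 2 and 0 with sex and age, 1 and 0 with the striatal level as a term, 9 and 0 with animals under 310 days, 2 and 0 without 3 choroid-high libraries, and 11 and 0 with the length trend removed. With each library left out they ran from 1 to 1635 genes and from 0 to 28 channel genes. The median of channel genes, -0.17, moved to -0.0721 with sex and age, -0.12 with the striatal level and -0.0519 with animals under 310 days, and stayed between -0.21 and -0.0519 throughout.

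Replicate numbers did not pair the samples: correlations of same-numbered libraries' deviations ran from -0.38 to 0.29. With a replicate block, KO against WT gave 2 genes and 0 channel genes.

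In MUT against WT, 3 genes became 52 with DESeq2, 7 without the sex term and 2 to 1066 with each library left out, and 0 channel genes became 20 without WT replicate 1, within 0 to 20. The channel median of -0.10 moved to -0.0387 with sex and age, -0.0489 with the striatal level, -0.0276 with animals under 310 days, and -0.14 to -0.0861 with each library left out. In MUT against KO, 1 gene became 15 with DESeq2, 31 with animals under 310 days and 1 to 10 with each library left out, and 0 channel genes became 1 (Kcnq3) with DESeq2, with animals under 310 days and in the range of 0 to 1 with each library left out. The channel median of 0.05 ran from 0.01 to 0.09.

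Of 24 gene values recomputed, 6 reversed in at least 1 setting. In KO against WT, Kcnn2 went to -0.26 with sex and age and to -0.26 with animals under 310 days, Kcnc4 to -0.0899 and -0.0596, and Kcnip3 to -0.18 and -0.14 under the same settings and to -0.0528 with the striatal level as a term. In MUT against WT, Kcnq3 went to -0.0454 and -0.10 and Kcnn2 to -0.16 and -0.20 with sex and age and with animals under 310 days, and Kcnq1ot1 to -0.0556 with the length trend removed. The cause was not tested.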
